A study of Mus musculus with 2 samples.

Results

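Twist1, its relatives and its partners were followed through RNA sequencing of cultured mouse Th1 cells labelled as with or without Chi3l1. The 10 genes were chosen by symbol: the Twist factors Twist1 and Twist2, the E proteins Tcf3, Tcf4 and Tcf12, the inhibitors Id1, Id2 and Id3, and the Bhlhe repressors Bhlhe40 and Bhlhe41. All 10 were among the 24421 genes listed, and 9 of them reached a log2 value of 4 in one library or both. Naive CD4 T cells of C57BL/6J mice of 6 to 8 weeks, either Chi3l1+/+ (WT) or Chi3l1-/- (KO, a germline deficiency of all cells), were activated on plate-bound anti-CD3 and anti-CD28. They were skewed in culture with IL-12, IL-2 and an antibody against IL-4, for 3 or 5 days according to the methods. Poly(A) RNA of 1 culture of each genotype was sequenced, and whether either was pooled from several mice is not given in the sources used here. With 1 library per genotype no difference has a replicate error, so no test between genotypes was made and no value below is a measure of variation between mice or cultures.

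Basic helix-loop-helix factors bind DNA as pairs, at the short palindrome CANNTG known as the E-box. E proteins are the broadly expressed partners, and Twist factors need one of them to bind as a heterodimer. ID proteins have the helix-loop-helix but lack the basic region that touches DNA, so an E protein held by an ID protein cannot bind. In T cells E proteins and ID proteins govern thymic selection and the choice between effector and memory states. Twist1 is induced by IL-12 and STAT4 in Th1 cells and limits their cytokine production, and Bhlhe40 keeps IL-10 low while it favours IFNγ and GM-CSF. The comparison of WT with KO Th1 cells addresses what the loss of Chi3l1, a chitinase-like protein without enzyme activity, does to the genes of IFNγ signaling.

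The values deposited are log2 of a normalized count plus 1, and a log2 difference below is the value of KO Th1 minus that of WT Th1. The rebuilt reads came to 70784577 for WT Th1 and 63122181 for KO Th1. Normalized counts over all genes also remained unequal, at 68448996 in WT Th1 and 60913079 in KO Th1. The targeted gene itself, listed as Chil1, went against the labels, with 1 rebuilt read in WT Th1 and 103 in KO Th1. A table with 1 value per gene cannot show whether these reads form an intact transcript. Whether each label belongs to its library was not tested. Each library is therefore named by its label only. Every direction below is that of the library labelled KO Th1 against the library labelled WT Th1, and would reverse if the labels were exchanged. The T cell markers found in the files, 6 of 7, were all well above the floor in both libraries, and the widest of their log2 differences was -0.37, for Cd4. The Th1 markers Tbx21, Ifng, Il12rb2, Cxcr3 and Stat4 stood above a log2 value of 4 in both libraries, with Ifng higher in KO Th1 by 1.32 on the log2 scale. Cxcr3, a Th1 chemokine receptor, was lower, at log2 values of 8.05 and 6.82 from 274 and 116 reads, a difference of -1.23. Log2 differences also followed the GC content of transcripts: of 20 bins of GC content, the AT-richest had a median of 0.23 and the GC-richest of -0.45, over 8579 genes.

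Of the 10 genes, 1 was lower by 2-fold or more in KO Th1, namely Twist1, and 1 was higher, namely Bhlhe41. Over all 24421 genes, 5.81% were lower and 4.7% were higher by 2-fold or more. When the libraries were scaled to Actb, the split of these calls over all genes moved from 1147 higher and 1418 lower to 1475 higher and 1184 lower. The remaining genes divided into Tcf3, Tcf4, Id2 and Id3, which were lower by less than 2-fold, Tcf12 and Bhlhe40, which were nearly level, Id1, which rested on few reads, and Twist2, which was listed at 0. The median log2 difference of the 10 genes was -0.19, beside a median of 0.00 over all genes, and both medians include genes without reads. For the 9 genes that reached a log2 value of 4 the median was -0.38, or -0.17 with the GC trend removed. Over all 13275 genes at that level it was -0.01 as deposited. The plot of values by gene sets both libraries side by side.

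**Figure D1:**
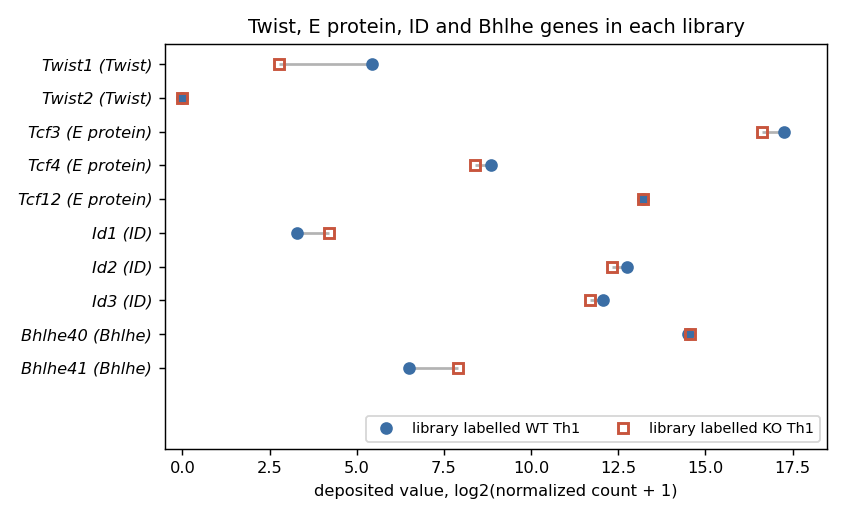
Deposited log2(normalized count + 1) on the horizontal axis for each of the 10 genes, with filled circles for the library labelled WT Th1 and open squares for the library labelled KO Th1. Twist1 (5.45 and 2.76) and Bhlhe41 (6.51 and 7.91) have the widest gaps, in opposite directions, and Tcf3 stands highest in both libraries.

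Twist1 lies on the plus strand of chromosome 12 (chr12:33957671-33959829, GRCm38), and its product represses cytokine genes in Th1 cells. Its log2 value was 5.45 in WT Th1 and 2.76 in KO Th1, from 44 and 6 rebuilt reads. The normalized counts of 42.7 and 5.76 make it 7.41-fold lower in KO Th1, and read counting alone gave a 95% exact (Clopper-Pearson) interval from 3.12-fold to 21.1-fold. The log2 difference was -2.69. Low counts scatter widely in these libraries: among the 1779 genes with a maximum of 4 to under 6 over the 2 libraries, as Twist1 has, 19.3% were lower by 2-fold or more and 14.4% were higher. The log2 difference stayed between -2.89 and -2.35 under the 6 other scalings and offsets tried.

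Twist2, the close relative of Twist1 on chromosome 1 (chr1:91801461-91848028, GRCm38), was listed at 0 in both libraries. A count of 0 allows up to 3 reads, which corresponds to a log2 value of 1.96 in either library. Twist2 was therefore not detectable at this depth, and no difference between the genotypes can be given for it. The only Twist transcript measured in these cultures was that of Twist1.

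Markers of other cells also differed between the libraries, some of them at the low level of Twist1. Of 6 neutrophil markers 5 were in the files, and their summed normalized counts were 58.9 in WT Th1 and 4.79 in KO Th1, with S100a8, S100a9, Elane and Ltf at 0 in KO Th1. The 5 macrophage markers summed to 517 in WT Th1 and 488 in KO Th1. Most of this came from Cd68, at log2 values of 8.61 and 8.18, and Csf1r, at 6.57 and 7.41. Lyz2 was at 5.08 and 1.53 and Mrc1 at 0.00 and 4.86, while Adgre1 was at 0 in both. Fibroblasts express Twist1 strongly, and of 6 fibroblast markers Col1a2, Col3a1, Pdgfra and Dcn were at 0 in both libraries. Their summed normalized counts, from Col1a1 and Pdgfrb, were 160 and 124. The methods describe a magnetic purification of naive cells as CD4+ CD25- CD62L+ and a flow sort for high CD62L and low CD44. Which of them was used for these libraries is not given there, nor is a purity measured on these cultures. The part of other cells in the Twist1 value was not tested, and in bulk RNA fewer expressing cells and less RNA per cell cannot be told apart.

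The 3 genes nearest to Twist1 in the plane of the log2 values of WT and KO Th1 were Itgax, Igf2 and Col5a1, at distances from 0.22 to 0.25. Itgax, which encodes the dendritic cell and macrophage integrin CD11c, had log2 values of 5.45 and 2.53. Igf2, a growth factor, had 5.48 and 2.53, and Col5a1, a fibrillar collagen chain, had 5.21 and 2.76. Likeness over 2 libraries compares a single difference and a single level.

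The promoters of Twist1 and Bhlhe41 are shown because these genes had the 2 widest differences among the 10, in opposite directions. Each is the stretch of 250 bases before the RefSeq start (GRCm38.p6), 5′ to 3′ on the gene's strand, with E-boxes of the form CANNTG in capitals. The Twist1 stretch is at chr12:33957421-33957670 on the plus strand, and the Bhlhe41 stretch is at chr6:145865421-145865670 on the minus strand.
Twist1: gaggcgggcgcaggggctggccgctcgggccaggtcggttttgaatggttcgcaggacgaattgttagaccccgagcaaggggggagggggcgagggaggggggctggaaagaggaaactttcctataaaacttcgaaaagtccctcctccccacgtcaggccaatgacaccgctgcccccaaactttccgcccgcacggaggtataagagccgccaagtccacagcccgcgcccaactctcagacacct
Bhlhe41: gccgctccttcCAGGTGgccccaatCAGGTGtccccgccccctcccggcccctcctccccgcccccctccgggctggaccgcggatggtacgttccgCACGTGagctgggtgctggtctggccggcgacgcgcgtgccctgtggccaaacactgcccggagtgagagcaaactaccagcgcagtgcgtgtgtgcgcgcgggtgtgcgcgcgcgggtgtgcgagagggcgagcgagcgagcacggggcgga

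The Twist1 stretch held no CANNTG, which reads the same on both strands. The Bhlhe41 stretch held 3, of which 1 was CACGTG, the form that Bhlhe factors prefer, and 2 were CAGGTG, a form that E protein pairs prefer. Over the 32851 promoter stretches of the same length, 66.2% held at least 1 CANNTG and 6.02% held CACGTG. A further form, CAGGTG on either strand, was in 17.2%. Promoter entries were found for 7 of the 10 genes, in 9 stretches. Twist2 and Id3 held no CANNTG, Id2 and Tcf3 held 1 each, and of the 3 Tcf12 stretches 2 held 1 each. A match is a stretch of letters and was not measured as a bound site.

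The E proteins came next to Twist1 as the partners it pairs with. Tcf3, which encodes E12 and E47 on chromosome 10 (chr10:80409514-80433647), had log2 values of 17.26 in WT Th1 and 16.62 in KO Th1. Its normalized counts of 157391 and 100371 were the highest of the 10 genes in both libraries. The log2 difference of -0.65 had an interval from -0.66 to -0.64 for read counting, and of the 8886 genes that reached a log2 value of 8 in both libraries 7.21% differed as much. The Tcf3 transcript had a GC content of 61.0%, in the highest GC bin, and with the GC trend removed its difference was -0.20. The median of that bin was -0.45, so other GC-rich genes were lower as well.

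Tcf12, which encodes HEB, the E protein with a large part in thymocyte development, was level. Its log2 values were 13.21 in WT Th1 and 13.22 in KO Th1, from 9818 and 9866 reads. The difference of 0.00 had a counting interval from -0.04 to 0.04, and it became -0.13 with the GC trend removed, which reversed its sign. Tcf4, which encodes E2-2, the factor of plasmacytoid dendritic cells, was at 8.85 and 8.40, from 475 and 349 reads. Its log2 difference of -0.44 had a counting interval, on the scale of read ratios, from -0.65 to -0.25. With the GC trend removed the difference of Tcf4 was -0.67, since its transcript had a GC content of 40.9%. The plasmacytoid dendritic cell marker Siglech was at 0 in both libraries, while Bst2, Ly6d and Irf8, which T cells and B cells also use, were between 0.22 and 0.56 higher on the log2 scale in KO Th1.

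The differences of the E proteins were therefore unequal within one pair of libraries. Tcf3 and Tcf4 were lower in KO Th1 as deposited and under all 6 other scalings and offsets, from -0.65 to -0.20 for Tcf3 and from -0.67 to -0.33 for Tcf4. Tcf12 stayed between -0.13 and 0.12.

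**Figure D2:**
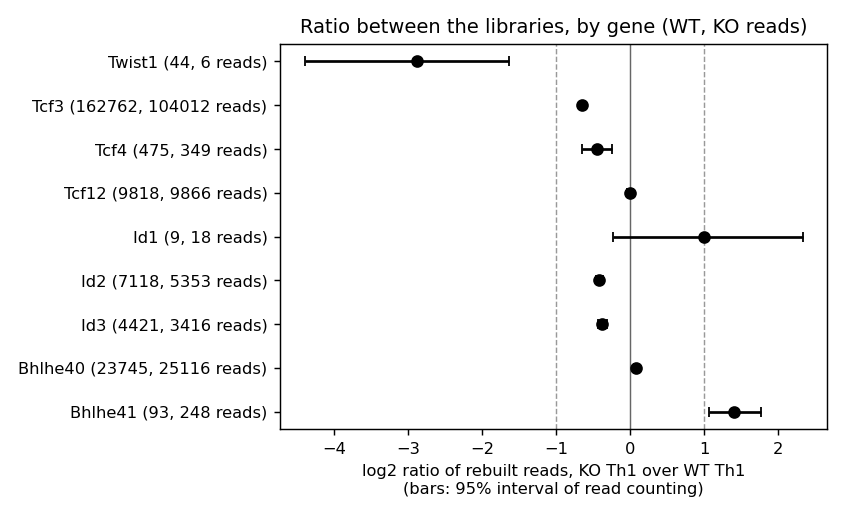
Log2 ratio of rebuilt reads, KO Th1 over WT Th1, for the 9 genes with reads in both libraries, with bars for the 95% exact interval of read counting and dashed lines at 2-fold. Twist1 (interval from -4.40 to -1.64) and Bhlhe41 (from 1.06 to 1.77) lie beyond the 2-fold lines, and the interval of Id1 (from -0.23 to 2.33) spans 0.

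Among the inhibitors, Id2 and Id3 were abundant and Id1 was scarce. Id2, which supports effector T cells and innate lymphoid cells, had log2 values of 12.75 in WT Th1 and 12.34 in KO Th1, from 7118 and 5353 reads. Id3, which supports naive, memory and follicular helper T cells, had 12.06 and 11.69, from 4421 and 3416 reads. Both were lower in KO Th1, by similar amounts. The log2 difference of Id2 was -0.41 (counting interval from -0.47 to -0.36) and that of Id3 was -0.38 (from -0.44 to -0.31).

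Differences of this size were common. Of the same 8886 genes, 23.9% differed as much as Id2 and 29.0% as much as Id3. With the GC trend removed Id2 was at -0.55 and Id3 at -0.17, so the order of the pair held and its spacing widened. Id1, an early target of BMP signaling that is low in resting lymphocytes, had log2 values of 3.28 in WT Th1 and 4.20 in KO Th1. These values came from 9 and 18 reads. Its normalized counts were 8.69 and 17.4, and the counting interval of their ratio, from 0.851 to 5.04, includes 1.

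The Bhlhe repressors differed between themselves. Bhlhe40, on chromosome 6 (chr6:108660629-108666925), was the second most abundant of the 10 genes per transcript length. Its log2 values were 14.49 in WT Th1 and 14.57 in KO Th1, a difference of 0.08 that 82.4% of the 8886 genes matched or passed in size. An antisense gene, 0610040F04Rik, shares 118 bases of exon with Bhlhe40 and had log2 values of 11.04 and 11.10. The sources used here do not say whether reads were counted by strand, so reads in the shared stretch cannot be told apart.

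Bhlhe41, which lies on the minus strand of the same chromosome (chr6:145858243-145865558), encodes a repressor of the molecular clock that B-1 cells also express. Its log2 value was 6.51 in WT Th1 and 7.91 in KO Th1, from 93 and 248 reads. The normalized count was 2.65-fold higher in KO Th1, with a counting interval from 2.09-fold to 3.41-fold, and the log2 difference was 1.40. Among the 2120 genes with a maximum of 6 to under 8 over the 2 libraries, as Bhlhe41 has, 6.6% were higher by 2-fold or more and 8.02% were lower. With the GC trend removed the difference was 1.32. A gene of unsettled status on the other strand, Gm43909, covers 510 bases of a Bhlhe41 exon.

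B cell markers were also higher in KO Th1, and their part in the Bhlhe41 value was not tested. The 3 reported here were all higher, with summed normalized counts of 578 in WT Th1 and 889 in KO Th1. Cd79a, a signaling chain of the B cell receptor, was at log2 values of 8.02 and 8.85, Cd79b at 8.03 and 8.29, and Ms4a1, which encodes CD20, at 5.91 and 6.87.

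**Figure D3:**
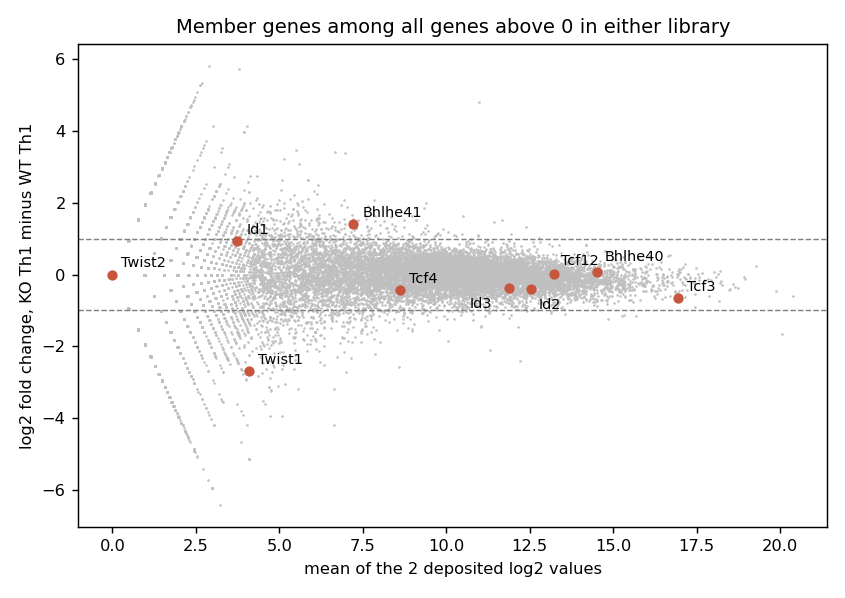
Mean of the deposited log2 values of the 2 libraries (horizontal axis) against the log2 difference, KO Th1 minus WT Th1 (vertical axis), for all genes above 0 in either library (grey) and the 10 genes (red, labelled), with dashed lines at 2-fold. The grey cloud narrows as the level rises, with Twist1 and Id1 in its wide low part, Bhlhe41 at its upper edge and Tcf3 far to the right.

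Levels of different genes were compared per kilobase of the longest annotated transcript, in normalized counts per kilobase. In WT Th1 the order was Tcf3 at 53353, Bhlhe40 at 7376, Id2 at 3496, Id3 at 3345, Tcf12 at 1507, Tcf4 at 53.5, Twist1 at 26.2, Bhlhe41 at 14.7, Id1 at 7.49 and Twist2 at 0. By this length the leading 6 places were the same in KO Th1. Below them the order by this length changed: Bhlhe41 at 39.0 and Id1 at 15.0 stood above Twist1 at 3.54 in KO Th1. Tcf4 at 39.3 and Bhlhe41 were nearly equal in that library. The places of Twist1 and Bhlhe41 depend on the length taken. Bhlhe41 transcripts had a longest of 6133 and a median of 744 bases, and the only Twist1 transcript had 1628. With median lengths Bhlhe41 would stand above Twist1 in both libraries. Id2 and Id3 were also close, with a ratio of Id2 to Id3 of 1.05 in WT Th1 and 1.02 in KO Th1, which became 0.936 and 0.911 with the median transcript length in place of the longest. The order of Id2 and Id3 thus depends on the transcript taken.

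**Figure D4:**
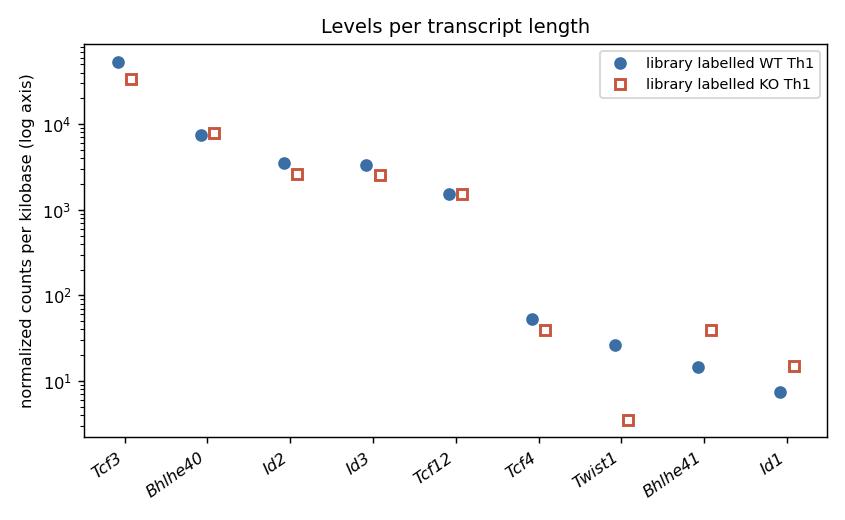
Normalized counts per kilobase of the longest transcript, on a log axis, for the 9 genes above 0, ordered by their level in the library labelled WT Th1 (filled circles) with the library labelled KO Th1 as open squares. Tcf3, Bhlhe40, Id2, Id3 and Tcf12 lie at 1507 or above in both libraries, and Tcf4, Twist1, Bhlhe41 and Id1 lie below 54.

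The levels of all E proteins were then summed, as were those of all ID genes. The E proteins summed to 54914 normalized counts per kilobase in WT Th1 and 35575 in KO Th1, a log2 difference of -0.63. Tcf3 held 97.2% of that sum in WT Th1 and 95.6% in KO Th1, and Tcf12 held 2.74% and 4.25%. These shares depend on the length taken. The longest and median transcripts had 6299 and 1780 bases for Tcf12, but 2950 and 2827.5 for Tcf3. The share of Tcf12 would therefore be larger with median lengths. The ID genes summed to 6848 and 5218, a log2 difference of -0.39. The ratio of E protein to ID transcripts was 8.02 in WT Th1 and 6.82 in KO Th1, or 5.48 and 4.82 with median transcript lengths. These differences depended on the GC trend, an alternative chosen after the data were seen. With it removed from each gene of KO Th1, the E protein sum was 47981, a log2 difference of -0.19, and the ID sum was 5383, a difference of -0.35. The ratio in KO Th1 was then 8.91, above the 8.02 of WT Th1, so the direction of the ratio reversed. Both sums were lower in KO Th1 as deposited and with the GC trend removed. Neither form sets the normalized totals of the libraries equal, and the total of KO Th1 was the lower. The E protein sum was 2093 times the Twist1 level in WT Th1 and 10047 times in KO Th1, as deposited, with Twist1 scarce beside its partners in both libraries. These are transcript ratios, and no protein was measured here.

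Across a wider list of 93 helix-loop-helix genes, which holds the 10 genes, 53 reached a log2 value of 4 in one library or both. Of these, 3 were higher and 3 were lower by 2-fold or more in KO Th1, beside 3.59% higher and 4.75% lower of all 13275 genes at that level. Besides Twist1 and Bhlhe41 they were Ascl2, Mycl, Mitf and Arntl2. None of the 6 reached a log2 value of 8 in both libraries, where 33 genes of the wider list stood. Such calls were rare at that level: of all 8886 genes there, 41 were higher and 66 were lower by 2-fold or more.

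Ascl2, a factor that starts follicular helper T cell differentiation, had log2 values of 6.64 in WT Th1 and 4.81 in KO Th1, from 102 and 28 reads. Mycl, a Myc paralog used by dendritic cells, had 4.86 and 3.27, from 29 and 9 reads. Both were lower in KO Th1, with log2 differences of -1.83 and -1.59. Mitf, the factor of melanocytes, mast cells and osteoclasts, had 4.66 and 6.71, from 25 and 107 reads. Arntl2, a clock partner of the PAS group, had 1.95 and 5.93, from 3 and 62 reads, a ratio whose counting interval ran from 6.74-fold to 103-fold.

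Each group of the wider list had its own spread. Of the 31 class II genes related to Twist, 18 were listed at 0 in both libraries and 5 reached a log2 value of 4. Of these 5, Ascl2 alone was past 2-fold, and Tal1 had a difference of -0.74, Bhlha15 of 0.50 and Scx of 0.50, the last being 0.95 with the GC trend removed. The 4 Hes and Hey genes at that level had a median difference of -0.63, with Hes1, the main Notch target, at -0.76 from 21 and 12 reads and Hes6 at -0.62 from 897 and 585 reads. The median of these 4 was -0.23 with the GC trend removed, and Hes6 was then at -0.17. Of the 12 Myc, Max and Mxd genes, 1 was past 2-fold, and the median was -0.11, or -0.04 with the GC trend removed. The 8 USF, TFE and SREBF genes had a median of -0.36 with 7 lower, among them Tfeb at -0.51, Srebf1 at -0.45 and Srebf2 at -0.45, and with the GC trend removed this median was -0.08 and the same 3 genes were at -0.06, -0.11 and -0.10. The 15 bHLH-PAS genes had a median of 0.03, which became -0.04 with the GC trend removed, with Hif3a at -0.82 and Epas1 at -0.58. The 13275 genes at that level had a median of -0.01, with 49.0% higher and 51.0% lower in KO Th1. These shares are the background for each count of higher and lower genes in a list.

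The Th1 genes linked to Twist1 did not share a direction. Of 12 such genes, all at that level, 7 were higher and 5 were lower in KO Th1, with a median difference of 0.12 and 1 past 2-fold. That gene was Ifng, which encodes IFNγ, with a difference of 1.32 from 3490 and 8751 reads. Socs1, an inhibitor of JAK kinases, was at -0.87. Runx3 was at -0.50 and Tbx21, which encodes T-bet, was at -0.27. With the GC trend removed Socs1 was at -0.52, Runx3 at -0.29 and Tbx21 at 0.08, and the median of the list was 0.06. Il18r1 was at 0.62 and Csf2, which encodes GM-CSF, at 0.59.

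The 10 NF-kappaB and NFAT genes, among them activators and protein partners of Twist1, had a median of -0.23 with none past 2-fold. Nfatc1 was at -0.68, Relb at -0.61, Nfatc2 at -0.45 and Rela, whose product Twist1 binds in its repression of cytokine genes, at -0.42. With the GC trend removed Relb was at -0.35, Nfatc2 at -0.27 and Rela at -0.07, and the median was -0.15. Of the mesenchymal genes that Twist works with in other tissues 8 were at that level, with none of the 8 past 2-fold and a median of -0.24. The extremes were Zeb2, a repressor of terminal effector T cells, at 0.63 and Vim, which encodes vimentin, at -0.57. The median of these genes was -0.11 with the GC trend removed, and Zeb2 was then at 0.40.

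T cell genes linked to E proteins and ID proteins were mixed as well. Of 20 such genes 16 were at a log2 value of 4 or more, with 6 higher, 10 lower and a median of -0.05. The thymic targets Rag1, Rag2 and Ptcra were at 0 in both libraries. Cxcr5, the follicular homing receptor, was higher in KO Th1, with a difference of 1.07 from 292 and 616 reads, and Gzma, which encodes granzyme A, was higher by 1.08 from 24 and 52 reads. B cells also express Cxcr5, and the B cell markers were higher in KO Th1 as well. The part of B cells in the Cxcr5 value was not tested. Dtx1, a Notch target, was at -0.95, and Cxcr4 was at -0.93. Dtx1 was at -0.50 with the GC trend removed, and the median of the list was then -0.08. Of the other E protein and ID partners 9 of 10 were at that level with a median of -0.22, the widest being Runx1t1, a corepressor, at 1.84 from 6 and 24 reads, and Gata3, the Th2 factor, at -0.64 from 3728 and 2400 reads. The BMP, TGF-beta and EGR genes that act upstream of ID genes numbered 15 at that level, with none past 2-fold and a median of -0.17. Egr3 was at -0.82 and Egr1 at -0.80, both inducers of Id3 after T cell receptor signaling, while the BMP receptor gene Acvr1 was at 0.85 and Smad1 at -0.58.

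The clock genes linked to Bhlhe40 and Bhlhe41 had none past 2-fold among 16, with 11 lower, 5 higher and a median of -0.23. Over all 13275 genes at a log2 value of 4 or more in one library or both, 51.0% were lower and 49.0% higher. Dbp was at -0.84 from 2133 and 1197 reads, Nr1d1 at -0.73 and Nr1d2 at 0.68. Hlf was at -0.81 from 20 and 11 reads, with a counting interval from -2.07 to 0.26 that spans 0. With the GC trend removed the median of the list was -0.09, Dbp was at -0.38 and Nr1d1 at -0.47. Of the 6 cytokine genes linked to Bhlhe40, 5 were at the same level and all 5 were higher in KO Th1, with a median of 0.59. Il10, which Bhlhe40 represses, was at 1.30 from 23 and 58 reads, and Maf, an activator of Il10, was at 0.58, beside Ifng and Csf2 given above. This list is short, and the study had named Ifng from these same libraries, so its direction is not independent evidence.

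**Figure D5:**
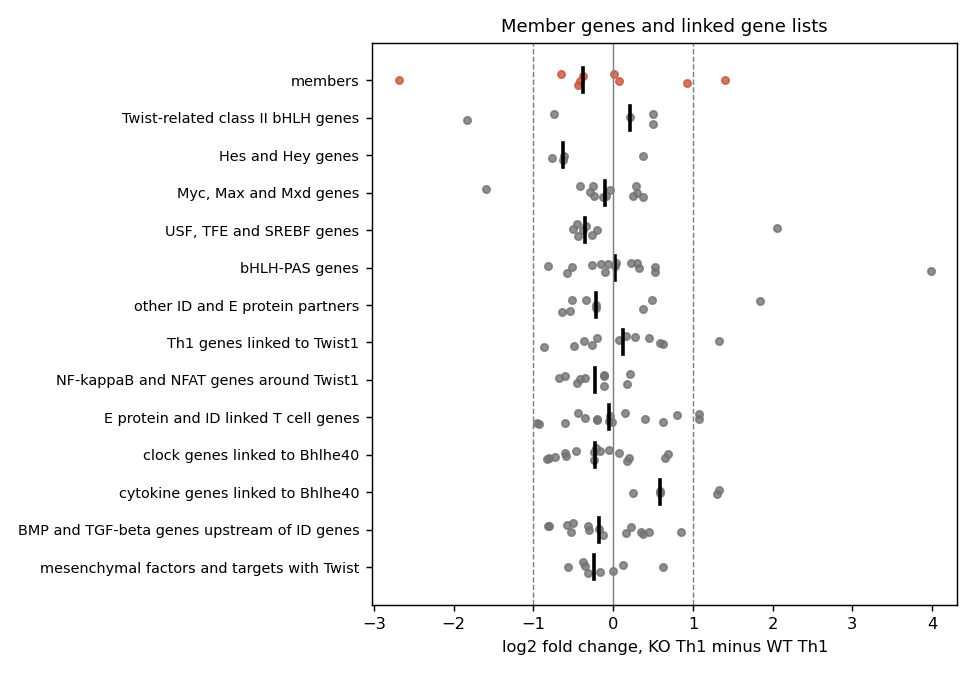
Log2 difference, KO Th1 minus WT Th1, of each gene that reached a log2 value of 4 in one library or both (dots), by list, with black bars at the list medians and dashed lines at 2-fold. The 9 member genes (red) span from -2.69 to 1.40, and the medians of the other lists plotted lie between -0.63 and 0.59.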

How the data were processed

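Poly(A) RNA libraries (SENSE mRNA-Seq kit, paired 100-base reads) were mapped by the authors with TopHat to mm10, and reads with unique and multiple alignments were counted and analysed with edgeR, so 1 read can count for several similar genes. The annotation and counter are not given in the sources used here. The deposited values were taken to be log2(normalized count + 1), a unit inferred from the files: with the log undone, 99.96% of low values in WT Th1 and 99.8% in KO Th1 lay within 0.1 of a whole multiple of 0.967 or 0.965, and reads were rebuilt with these steps. Intervals (95%, exact Clopper-Pearson) cover counting error only. Transcript length, GC content and coordinates came from GENCODE M21 (GRCm38), and promoters from RefSeq. The GC trend was the median log2 difference in 20 bins over genes at 8 or above in both libraries. All 10 member genes are reported, with up to 4 genes per list (largest differences at a log2 value of 4 or more), genes the study links to Twist1, Chil1 and the 3 nearest to Twist1; Arntl2, Mitf, Mycl and Ascl2 fall under the list rule. Single markers, genes listed at 0 and overlapping or neighbouring genes outside this rule were named after their values were seen. Members and lists were chosen with earlier results of these data known. One planned marker gene is not reported here. The planned comparison of protein sequences was not run. Scripts were tested on simulated data. Software was scipy 1.17.1, numpy 2.4.6, matplotlib 3.10.9 and pandas 2.3.3 under Python 3.11.15.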

Additional observations from a re-analysis of the deposited data

How the results depend on the processing

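The alternatives were a pseudocount of 0.1, no pseudocount, scaling to Actb or by the median ratio, quantile normalization and removal of the GC trend, and for counts also other thresholds and floors. Among the 10 genes, those higher by 2-fold or more went from 1 to 2 with no pseudocount, quantile normalization, scaling to Actb, the GC trend removed or a 1.5-fold threshold, and to 0 at 3-fold. The gene gained was Id1. Those lower went from 1 to 2 at 1.5-fold, which adds Tcf3, and stayed at 1 under every other alternative. Over all genes, 2345 were higher and 2795 lower at 1.5-fold, 573 and 733 at 3-fold, 589 and 776 where both libraries had to reach a log2 value of 1, and 476 and 630 where either had to reach 4. Twist1 ranged from -2.89 to -2.35 and Bhlhe41 from 1.32 to 1.51. Of the other genes Tcf12 changed sign, between -0.13 and 0.12, while Tcf3, Tcf4, Id1, Id2, Id3 and Bhlhe40 kept theirs under all 6 scalings and offsets. In a further alternative chosen after the data were seen, removing the GC trend before summing per kilobase moved the log2 difference of the E protein sum to -0.19 and that of the ID sum to -0.35, and reversed that of their ratio, from -0.23 to 0.15. Twist2 has no value without a pseudocount. No paired analysis was possible because each genotype has 1 library, and for the same reason no replicate could be left out. Depth limits Twist2, with no read in either library, then Twist1, with 6 reads in KO Th1, and Id1, with 9 in WT Th1.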

Other observations

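Bhlhe41 and Arntl2, both higher in KO Th1, lie on the same stretch of chromosome 6, with starts 0.938 Mb apart. This neighbourhood was looked at after the values were seen. Within 1 Mb of Bhlhe41, 12 other genes start that reached a log2 value of 4 in one library or both. Over all 13275 genes at that level, 3.59% were higher and 4.75% were lower by 2-fold or more. Of the 12, 2 were higher by 2-fold or more and none was lower, with a median difference of 0.10. The call of Arntl2 was known before the window was drawn. Besides Arntl2 the other was Stk38l, which encodes a kinase of the NDR family, with log2 values of 9.19 in WT Th1 and 10.33 in KO Th1. Itpr2, in the same window, which encodes a calcium channel of the endoplasmic reticulum, had 11.59 and 11.65.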
